A study of Homo sapiens with 93 samples.

Results

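The Notch and RUNX host factors described here are 10 genes, RBPJ, NOTCH1, NOTCH2, HES4, SPEN, MAML1, RUNX1, RUNX3, BATF and ETS1, taken from the table of H3K36me3 counts by their Ensembl identifiers. All 10 of them were among the 14000 features of the table, and all 10 passed the filter on low counts, which left 13915 features. CUT&Tag was used for H3K36me3, the trimethyl mark on lysine 36 of histone H3. In this assay an antibody to the mark brings in a transposase, and the fragments it releases are sequenced and counted over each feature. The samples are 93 lymphoblastoid cell lines, with 1 library per line, no treatment and no control antibody among them. They form 1 group, so what can be described is the level of each gene and how it differed between lines, where line, culture batch and library preparation cannot be told apart.

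Lymphoblastoid lines are B cells held in permanent growth by Epstein-Barr virus. Notch receptors are cut when a ligand binds, and the freed part enters the nucleus and binds RBPJ, a DNA-binding protein that otherwise recruits repressors. The viral protein EBNA2 also binds RBPJ and so reaches many of the same genes without a Notch signal. RUNX3 is known in these cells as a target of EBNA2, and its protein is known to repress RUNX1 there. H3K36me3 is laid down over the bodies of genes as they are transcribed, so its count over a gene follows transcription in part but is no measure of RNA.

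Library totals ran from 2842955 to 24325746 counts, with a median of 14883653. CPM below is the usual count scaled to library depth, here to the TMM-scaled library total, and every gene's lowest, median and highest values are over the 93 lines. The dynamic range of a library, used as a covariate, sets its strongly marked features against its weakly marked ones. Features were ranked by their mean over all lines, and the median log2 CPM of the lowest quintile was subtracted from that of the highest. Whether the lines carry B cell markers was not analysed here, since only the 10 identifiers could be paired with gene names.

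To place the factors next to the sites they bind, the core letters of the RBPJ site, GTGGGAA, and of the RUNX site, TGTGGT, were searched on both strands in RefSeq windows of 300 bases around annotated start sites (GRCh38.p14). The RBPJ letters were in 6.25% of 35116 windows and the RUNX letters in 13.1%. The members had 14 windows, belonging to 9 genes. The RBPJ letters were in 3 of them (HES4, SPEN and 1 of 5 windows of RBPJ itself) and the RUNX letters in 2 (1 of 2 windows of RUNX3, and BATF). The 30 bases around these matches are shown because they are the letters the factors themselves would read, on the gene's strand with the match in capitals, and TTCCCAC and ACCACA are the same letters read from the other strand.
HES4, chr1:1000156-1000185, minus strand: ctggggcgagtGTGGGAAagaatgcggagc
SPEN, chr1:15847697-15847726, plus strand: cgcgcgcgccaGTGGGAAgcgtccggctgc
RBPJ, first match, chr4:26319620-26319649, plus strand: gtttaggaaatTTCCCACggccgtgttgtg
RBPJ, other match, chr4:26319662-26319691, plus strand: agtggaaggcgGTGGGAAggaggtgtagcg
RUNX3, chr1:24965124-24965153, minus strand: cctggtccctcaACCACAgaACCACAaggc
BATF, chr14:75522425-75522454, plus strand: gagttaccagaaACCACAagagagagagag
In RUNX3 the RUNX letters stood in the window as a pair, and in RBPJ the RBPJ letters were found in both orientations. These matches are descriptions of letters and say nothing of binding in these lines.

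RUNX3 and NOTCH1 carried the highest mean levels of the mark for their length and NOTCH2 and RBPJ the lowest. Levels between genes are given per kilobase of the RefSeq gene span, since a longer gene collects more counts. RUNX3 (ENSG00000020633, chr1:24899511-24965138) averaged 8.20 ± 1.52 CPM per kb and NOTCH1 (ENSG00000148400, chr9:136494433-136546048) 7.45 ± 1.17 (SD, n = 93 for these and the following). MAML1 (ENSG00000161021, chr5:179732822-179777283) followed with 2.76 ± 0.24 CPM per kb and SPEN (ENSG00000065526, chr1:15847707-15940456) with 2.69 ± 0.353.

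BATF (ENSG00000156127, chr14:75522469-75546992) stood at 2.06 ± 0.414 CPM per kb, ETS1 (ENSG00000134954, chr11:128458765-128587558) at 1.31 ± 0.47 and HES4 (ENSG00000188290, chr1:998964-1000097) at 1.20 ± 0.542. RUNX1 (ENSG00000159216, chr21:34787801-35049302) had 1.05 ± 0.276 CPM per kb, NOTCH2 (ENSG00000134250, chr1:119911553-120069662) 0.653 ± 0.213 and RBPJ (ENSG00000168214, chr4:26105449-26435131) 0.498 ± 0.0737. The span used for RBPJ, 329.683 kb, and for RUNX1, 261.502 kb, reaches to far upstream start sites. If those are little used, the value per kb understates the marked part. The interval counted for each feature was not stated in the labels or headers.

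Some neighbours in this order kept their places in nearly every line and others did not. NOTCH1 was above MAML1 in 93 of 93 lines, RUNX1 above NOTCH2 in 91, SPEN above BATF in 87 and BATF above ETS1 in 86. NOTCH2 was above RBPJ in 74 of 93 lines and RUNX3 above NOTCH1 in 65. At both ends of the order the difference was thus within its spread, at 0.33 log2 units (SD 0.42) for NOTCH2 over RBPJ and 0.13 (SD 0.28) for RUNX3 over NOTCH1. In the 47 deeper libraries RUNX3 and NOTCH1 stood at 3.04 and 3.03 log2 CPM per kb. MAML1 and SPEN differed by 0.04 log2 units, less than the SD of that difference (0.20), with MAML1 above in 55 lines. ETS1 and HES4 (ETS1 above in 44 lines) and HES4 and RUNX1 (HES4 above in 56) likewise differed by less than their spread.

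**Figure D1:**
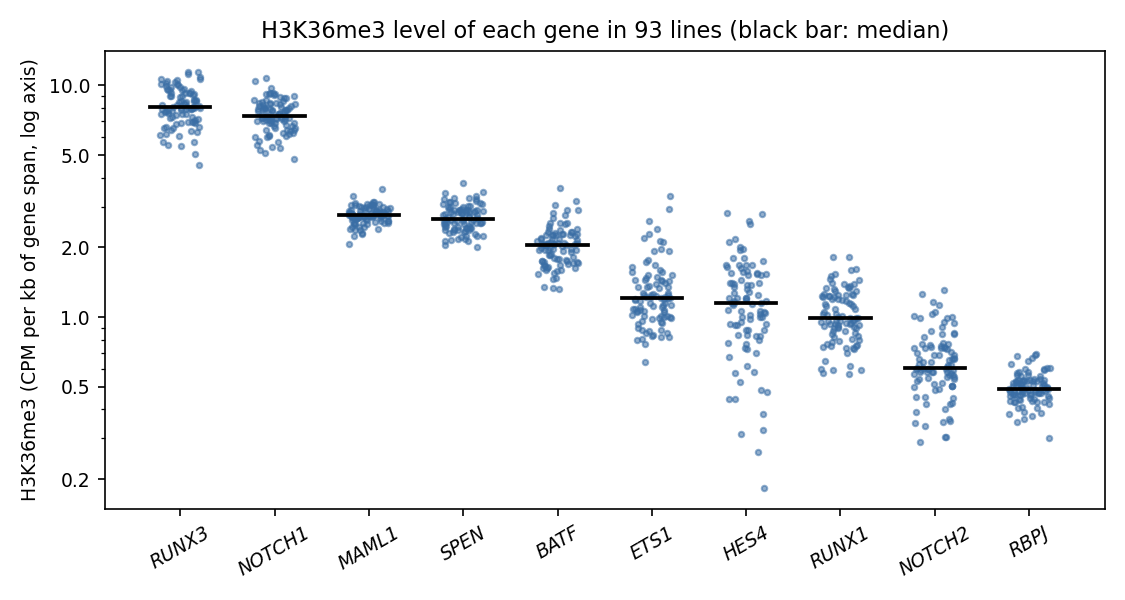
H3K36me3 level of each gene in CPM per kb of gene span (log axis), with 1 point per line and a black bar at the median. RUNX3 and NOTCH1 lie above the other 8 genes, with medians of 8.08 and 7.39, and RBPJ is lowest, with a median of 0.489.

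Each of the related pairs was uneven. RUNX3 exceeded RUNX1 per kb in 93 of 93 lines, with a median ratio of 8.29 that ran from 3.11 to 18.6 between lines. NOTCH1 exceeded NOTCH2 in 93 of 93 lines, with a median ratio of 11.7 and a range from 4.51 to 30.1. The size of these ratios depends on the spans: per feature, mean log2 CPM was 9.05 for RUNX3 and 8.05 for RUNX1, and 8.57 for NOTCH1 and 6.62 for NOTCH2. In both pairs the members were also correlated negatively between lines, as given below.

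The table has stretches in which the median level of the rows is lower. The rows around BATF and RUNX1 had a median of 5.17 and 5.16 log2 CPM and those around ETS1 4.69, against 5.31 to 6.15 around the other 7 genes. What part this has in the places of BATF, RUNX1 and ETS1 in the order was not tested. In the stretches that hold ETS1, BATF and RUNX1, 52.8%, 53.9% and 53.5% of counts of at least 5 were even. In the other stretches 50.1% to 50.3% were, and the cause was not tested.

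RBPJ, the DNA-binding hub, had a narrow range, from 98.9 to 229.5 CPM with a median of 161. The receptor NOTCH1 ran from 248 to 553 CPM around a median of 382. The receptor NOTCH2 was wider, from 45.7 to 206 CPM with a median of 95.6. Its highest line thus had 4.51 times the level of its lowest, against 2.23 times for NOTCH1 and 2.32 times for RBPJ.

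MAML1, the coactivator that joins the Notch and RBPJ complex, was the steadiest of the 10, from 92.1 to 159 CPM around 122. SPEN, a large corepressor that RBPJ recruits, ran from 186 to 349.8 CPM around 246. Their coefficients of variation were 0.087 for MAML1 and 0.131 for SPEN, against a median of 0.205 over all features. HES4, a small repressor of the HES family of Notch targets, had 1 to 59 counts per library and 0.208 to 3.19 CPM around 1.31. Counting error alone gives HES4 a coefficient of variation of 0.323, against the 0.451 observed.

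RUNX1, a transcription factor of blood cell development, ran from 148 to 476 CPM around 260.3. RUNX3, its relative in mature lymphocytes, ran from 298 to 752 CPM around 530.1. Between quartiles RUNX1 covered 224 to 324 CPM and RUNX3 471 to 609.6 CPM. BATF, the AP-1 family factor that pairs with IRF4 in activated lymphocytes, had 32.5 to 88.6 CPM around 50.4. ETS1, an ETS family factor of B and T cells, had the widest range after HES4, from 82.4 to 428 CPM around 155.

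Of the 10 genes, 4 varied more between lines than features of the same count. The test was edgeR's deviance goodness-of-fit test against the trended dispersion with library total and dynamic range as covariates and Benjamini-Hochberg adjustment over all features, which called 18.6% of the 13915 features. ETS1 lay 1.69 log2 units above the trend (adjusted p = 2.29e-21), NOTCH2 1.62 (adjusted p = 6.00e-19), HES4 1.43 (adjusted p = 8.61e-05) and RUNX1 0.57 (adjusted p = 0.0124). RUNX3 and BATF, at 0.19 and 0.24 above the trend, did not pass (adjusted p = 0.61 and 0.505). The median over all features was -0.55.

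The other 4 genes lay below the trend, RBPJ at -0.59, NOTCH1 at -1.09, SPEN at -1.64 and MAML1 at -2.22. Only 4.61% of features had a lower ratio than MAML1, whereas 95.8% had a lower one than ETS1 and 95.3% a lower one than NOTCH2. The median over the 10 genes was 0.22. With 5 or 10 principal components as covariates RUNX1 did not pass (-0.10 and 0.03, adjusted p = 1 in each), nor in the 46 shallower libraries (0.29, adjusted p = 0.62). DESeq2's stricter dispersion outliers, 255 in all, held none of the 10.

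ETS1 lies in a stretch of the table, the rows after 1900 up to 3200, to which 1 drop in counts was fitted per library. The drop was placed at the row with the largest weighted contrast, from row 2017 to row 3047, and averaged 0.85 log2 units. The fit places a drop in every library, so whether each library has one was not tested. In 10 lines the fitted row lies after the row of ETS1, and in 83 before it. In 11 lines it lies within 50 rows of ETS1, so the side is uncertain for these. ETS1 had r = 0.556 with the median of the rows 10 to 100 away, most of which entered the fit. The grouping is thus not independent of the level of ETS1. ETS1 ran from 222 to 428 CPM with a median of 288 in the 10 lines, and from 82.4 to 254 CPM with a median of 148 in the 83. The ranges overlapped only between 222 and 254 CPM. Without the 10 lines ETS1 was still called, at 0.85 log2 units above the trend (adjusted p = 0.000148, edgeR goodness-of-fit test), and its coefficient of variation was 0.227 in place of 0.36. RUNX1 was not called without them (0.42, adjusted p = 0.127).

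**Figure D2:**
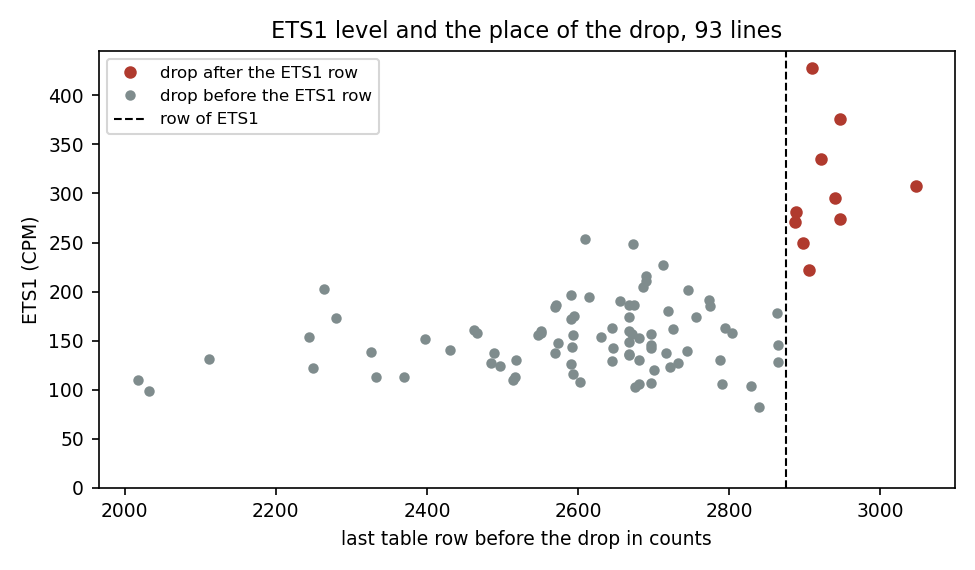
ETS1 level in CPM against the last table row before the fitted drop in counts, with 1 point per line and a dashed line at the row of ETS1. The 10 lines to the right of the dashed line lie between 222 and 428 CPM and the 83 lines to its left between 82.4 and 254 CPM.

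RUNX1 was higher in lines with more NOTCH2 and RBPJ and lower in lines with more RUNX3, NOTCH1, ETS1, HES4 and BATF, and each of these 7 pairs passed the test. Each member in turn was used as a predictor of every other feature in limma, on log2 CPM with library total and dynamic range as covariates. A pair was called where both adjusted p, over all 139140 tests, were at most 0.05. Of the 45 pairs 21 were called (46.7%), 10 with a positive and 11 with a negative correlation. With 5 and 10 principal components removed 2 and 0 pairs were called, and 4 were in the 47 deeper libraries, all 4 among RUNX1, NOTCH2, RUNX3 and ETS1. With any member as predictor 35.3% of all feature tests were called, so many features move with these genes. That share fell along with the pair count. It was 0.566% and 0.147% with 5 and 10 principal components removed, and 5.07% in the deeper libraries. The share among the pairs is not far above 35.3%. A pair had to pass in both directions, but the directions gave the same call in every pair. What stands out is the size of a few correlations, given below as descriptions over 93 lines, with all values taken after removing the covariates.

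**Figure D3:**
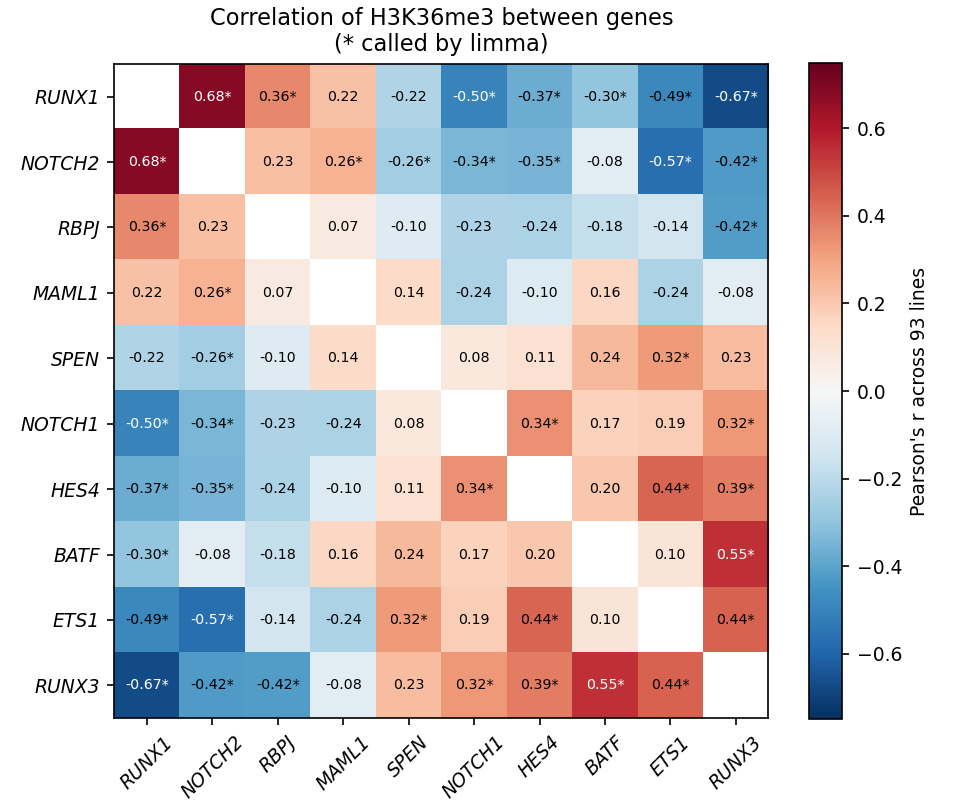
Pearson's r of H3K36me3 between the 10 genes across 93 lines, after removing library total and dynamic range. An asterisk marks the 21 called pairs. The strongest are RUNX1 with NOTCH2 at 0.68 and RUNX1 with RUNX3 at -0.67.

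RUNX1 and RUNX3 moved in opposite directions. Pearson's r was -0.672 and Spearman's rho -0.628 (adjusted p = 1.57e-10, limma), and leaving out the 2 lines farthest from the RUNX1 median gave r = -0.605. RUNX3 fell by 0.60 log2 units for each log2 unit of RUNX1. Out of 13914 features RUNX1 had rank 2 among the most negative partners of RUNX3, and RUNX3 had rank 9 among those of RUNX1. A correlation as strong in either direction was seen for 0.23% of features with RUNX1 and 0.424% with RUNX3.

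This pair was called under 13 of 14 other settings, with r between -0.737 and -0.41. The exception was removal of 10 principal components, where r = -0.41 had adjusted p = 0.0588. It was called among the 46 shallower libraries (r = -0.717) and among the 47 deeper ones (r = -0.534, adjusted p = 0.00926, limma). With each gene centred on the median of the rows 10 to 100 away in the same library, r was -0.629. RUNX1 had r = 0.0168 with that local median and RUNX3 r = 0.403.

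RUNX1 and NOTCH2 rose and fell together. They had r = 0.682 and rho = 0.654 (adjusted p = 5.06e-11, limma), and leaving out 2 lines in the same way, by the NOTCH2 median, gave r = 0.679. NOTCH2 was at rank 15 of 13914 among the positive partners of RUNX1, and RUNX1 at rank 25 among those of NOTCH2. Among the shallower libraries r was 0.634, and among the deeper ones 0.681. It was not called once 5 principal components were removed (r = 0.13) or 10 (r = 0.286).

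**Figure D4:**
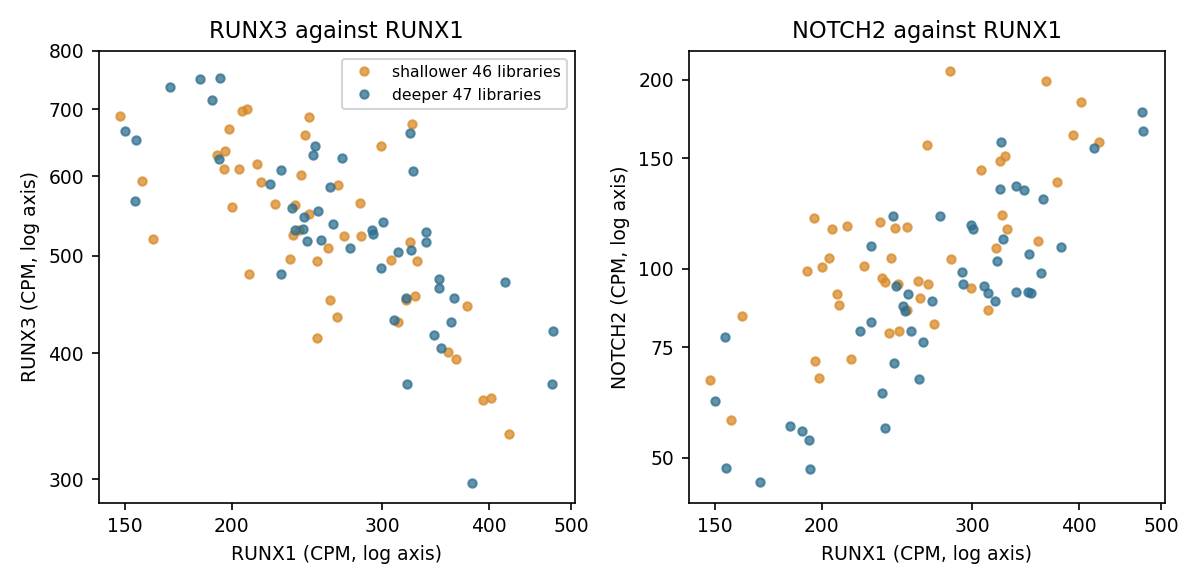
RUNX3 (left) and NOTCH2 (right) against RUNX1 in CPM on log axes, 1 point per line, coloured by the shallower 46 and deeper 47 libraries. RUNX3 is lower and NOTCH2 higher in lines with more RUNX1, in both depth classes.

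RBPJ was called with RUNX1 and RUNX3. It had r = 0.358 with RUNX1 (rho = 0.323, adjusted p = 0.00273) and r = -0.42 with RUNX3 (rho = -0.384, adjusted p = 0.000315, limma). RUNX3 had rank 41 of 13914 among the negative partners of RBPJ, but RBPJ only rank 1306 among those of RUNX3. A correlation as strong in either direction was seen for 0.625% of features with RBPJ and 18.2% with RUNX3. For RBPJ and RUNX1 the shares were 2.72% with RBPJ and 30.1% with RUNX1. Neither pair was called in the 47 deeper libraries, with r = 0.222 for RUNX1 and r = -0.249 for RUNX3. Nor was either called with 5 or 10 principal components removed, where r was 0.027 and -0.085 with RUNX1 and -0.307 and -0.255 with RUNX3. RBPJ and NOTCH2, at r = 0.227, did not pass (adjusted p = 0.0737).

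BATF rose and fell with RUNX3. The pair had r = 0.549 and rho = 0.549 (adjusted p = 6.95e-07, limma), and RUNX3 was at rank 43 of 13914 among the positive partners of BATF. BATF was at rank 390 among those of RUNX3, and 4.06% of features were as strongly correlated with RUNX3 in either direction. The pair was also called with 5 principal components removed (r = 0.428, adjusted p = 0.0123), but not with 10 (r = 0.288) nor in the 47 deeper libraries (r = 0.407, adjusted p = 0.0697). BATF had r = -0.298 with RUNX1 (adjusted p = 0.0142), which was not called in either depth class, and no called correlation with the other 7 genes. For BATF and RUNX1, 40.3% of features were as strongly correlated with RUNX1 and 25.1% with BATF.

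ETS1 stood opposite to NOTCH2 and RUNX1. It had r = -0.567 with NOTCH2 (rho = -0.545, adjusted p = 1.81e-07) and r = -0.486 with RUNX1 (rho = -0.423, adjusted p = 1.58e-05, limma). Its correlations with RUNX3, HES4 and SPEN were positive, at r = 0.441, 0.435 and 0.319. Without the 10 lines whose drop lies after ETS1 its r was -0.526 with NOTCH2, -0.382 with RUNX1, 0.342 with RUNX3 and 0.293 with HES4, and each of these 4 pairs was called. The choice of these 10 lines was not independent of the level of ETS1, so whether the pairs hold apart from the drop was not tested. In the deeper libraries the pairs of ETS1 with RUNX3, HES4 and SPEN were not called (r = 0.398, 0.418 and 0.242). With 5 principal components removed none of its pairs was called, and its r with NOTCH2 was -0.118. At an unadjusted p of 0.05 limma called 5 of the 45 member pairs there. Over all 93 lines, 3.06% of features were as strongly correlated with NOTCH2 as ETS1 was, in either direction, and 12% with RUNX1. The shares were 15.4% with RUNX3, 0.74% with HES4 and 29.3% with SPEN. Taken with ETS1, they were 1.18%, 4.85%, 8.19%, 8.91% and 26.6% in the same order.

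The receptors NOTCH1 and NOTCH2 were correlated negatively. NOTCH1 had r = -0.503 with RUNX1 (rho = -0.467, adjusted p = 1.22e-05), -0.343 with NOTCH2 (adjusted p = 0.00485), 0.341 with HES4 (adjusted p = 0.00529) and 0.324 with RUNX3 (adjusted p = 0.0084, limma). Without the 2 lines farthest from the NOTCH1 median these became -0.417, -0.281, 0.276 and 0.231. None of the 4 was called in the deeper libraries or with 5 or 10 principal components removed, and r between NOTCH1 and NOTCH2 turned to 0.23 with 5 and 0.186 with 10 principal components removed. In either direction, 12.3% of features were as strongly correlated with NOTCH1 as NOTCH2 was, 12.7% as HES4 and 15.4% as RUNX3. For RUNX1 the share was 0.805%. Taken with the partner, the shares were 31.2% for NOTCH2, 8.45% for HES4, 33.7% for RUNX3 and 9.83% for RUNX1.

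HES4 had r = 0.386 with RUNX3 (adjusted p = 0.00112), -0.371 with RUNX1 (adjusted p = 0.00185) and -0.346 with NOTCH2 (adjusted p = 0.00407, limma). Its counts were low, with a median of 17 per library. In the deeper libraries none of these 3 pairs was called, with r = 0.249, -0.215 and -0.32. With 5 principal components removed r was 0.131, -0.051 and 0.049, also not called. HES4 with RUNX1 was not called without covariates either (r = -0.181, adjusted p = 0.126). In either direction, 3.44% of features were as strongly correlated with HES4 as RUNX3 was, 4.76% as RUNX1 and 7.78% as NOTCH2. Taken with the partner, the shares were 23% for RUNX3, 28% for RUNX1 and 30.7% for NOTCH2.

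NOTCH2 was also called with RUNX3 (r = -0.423, adjusted p = 0.000246), SPEN (r = -0.263, adjusted p = 0.0403) and MAML1 (r = 0.258, adjusted p = 0.0491, limma). NOTCH2 with MAML1 was called in 5 of 14 other settings, and r was -0.067 without covariates. NOTCH2 with SPEN was called in 8 of 14, with r = 0.111 and 0.236 with 5 and 10 principal components removed. NOTCH2 with RUNX3 was called in 11 of 14, and not in the deeper libraries (r = -0.281) or with 5 (r = 0.075) or 10 (r = -0.076) components removed. MAML1 had no other called partner, and SPEN only ETS1 besides NOTCH2. In either direction, 17.9% of features were as strongly correlated with NOTCH2 as RUNX3 was, 45.9% as SPEN and 47% as MAML1. Taken with the partner, the shares were 17.9% for RUNX3, 39.6% for SPEN and 10.9% for MAML1.

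The background against which to read these counts differs by gene. RUNX1 had 2 positive and 5 negative partners out of 9, and 25.6% and 23.7% of all features were called with it in these directions. NOTCH2 likewise had 2 and 5 partners, against 26.2% and 22.8% of features. RUNX3 had 4 positive and 3 negative partners, against 23.4% and 23.9%. These 3 genes each had 7 called partners of 9.

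ETS1 had 3 positive and 2 negative partners, against 19.6% and 21.9% of features. HES4 had 3 and 2, against 10.3% and 15.1%, and NOTCH1 2 and 2, against 15% and 15.9%. RBPJ had 1 and 1, against 10.5% and 9.34%, and BATF 1 and 1, against 16.3% and 18.8%. SPEN had 1 and 1, against 24.4% and 18.1%, and MAML1 1 and 0, against 7.52% and 4.67%. At no more than 1 partner of 9 in each direction, RBPJ, BATF, SPEN and MAML1 were near or below what all features show. At 2 of 9, so were the positive partners of RUNX1 and NOTCH2 and the negative partners of ETS1.

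**Figure D5:**
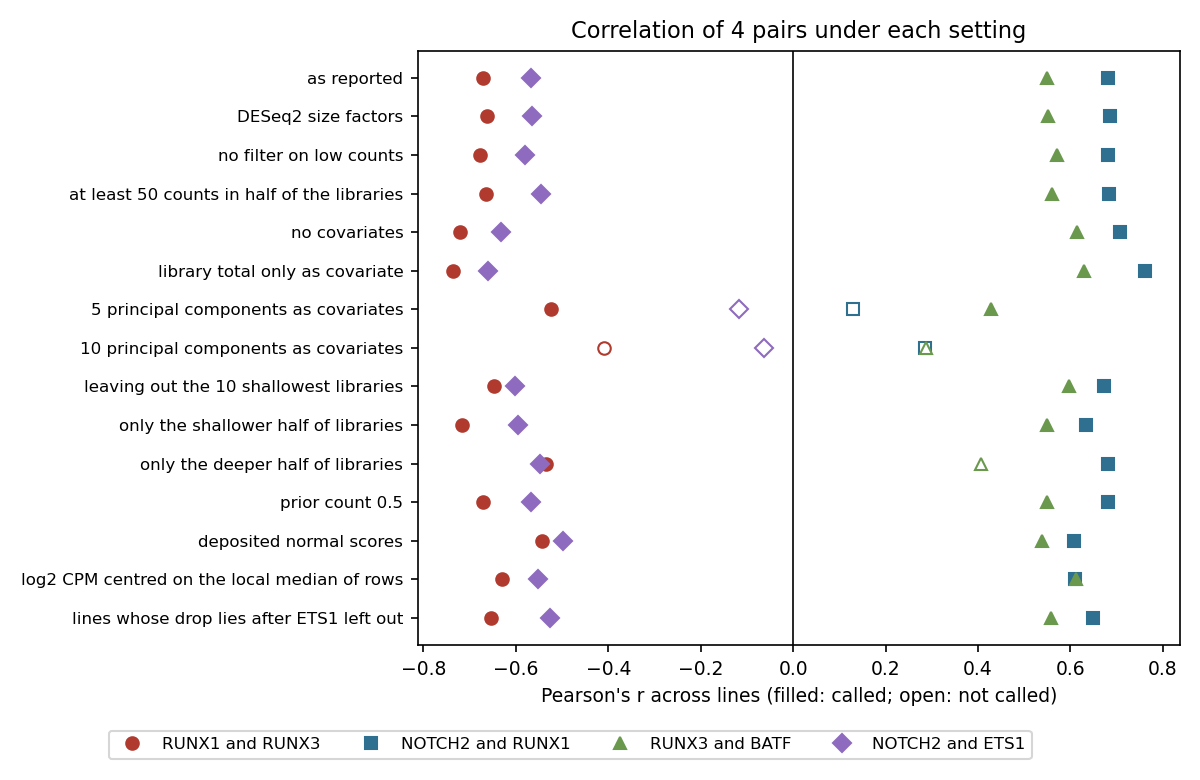
Pearson's r of 4 pairs across lines under each setting, with filled symbols where the pair was called and open ones where it was not. RUNX1 and RUNX3 is called in each setting except with 10 principal components removed (r = -0.41), while NOTCH2 with RUNX1 and NOTCH2 with ETS1 move towards 0 once 5 components are removed.

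Library properties moved with most of the genes, as they did with most features. Of 13915 features, 10921 were called with dynamic range and 9408 with library total, so the genes are near that background. With dynamic range, 6 of the 10 were called higher (SPEN, RUNX3, BATF, ETS1, NOTCH1 and MAML1), against 40.3% of features, and 3 lower (RUNX1, NOTCH2 and RBPJ), against 38.2% (limma). RUNX1 itself had r = -0.639 and rho = -0.601 with dynamic range, and SPEN r = 0.713 and rho = 0.711. These calls are from a fit with library total held. Taken alone, NOTCH1 had r = -0.113 with dynamic range, the other sign.

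With log2 library total 4 genes were called higher (NOTCH1, MAML1, RUNX3 and ETS1), against 27% of features, and 3 lower (RBPJ, NOTCH2 and RUNX1), against 40.6%. These calls are from a fit with dynamic range held, and the properties themselves had r = -0.497. Taken alone, log2 total had r = 0.069 with RUNX1, 0.121 with RUNX3 and -0.00055 with ETS1. With library total as the only term none of these was called (adjusted p = 0.569, 0.304 and 0.997, limma). NOTCH1 had r = 0.687 and rho = 0.705 with log2 total. Both properties were covariates in the fits above, and without covariates the r of RUNX1 with RUNX3 was -0.721 and that of RUNX1 with NOTCH2 0.707. What remains of library preparation in the correlations was not tested, since the labels give no line's batch.

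Reads of related or overlapping genes may enter some of the values. RefSeq lists 4 genes named NOTCH2NL and a pseudogene that are copies of part of NOTCH2, and 4 pseudogenes of RBPJ, so NOTCH2 and RBPJ are uncertain to that extent. How reads that match several places were treated was not stated in the labels or headers. Antisense genes overlap SPEN, RUNX1, RUNX3 and ETS1, and a chromatin mark has no strand, so their counts cannot be told apart. RBPJ is overlapped by 5 RefSeq genes that have only LOC names, and NOTCH1 by 2 genes, 1 of them MIR4673. No other RefSeq gene overlaps HES4, NOTCH2, MAML1 or BATF.

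Members also moved with the rows next to them in the table. The mean r of adjacent rows was 0.28 over 13847 pairs. ETS1 had r = 0.466 and 0.626 with the previous and next rows, RUNX1 0.493 and 0.311 and RBPJ 0.41 and 0.502. BATF had 0.0756 and -0.0566 and MAML1 0.135 and 0.0538, which is below that mean in each case. In the deposited score table the 10 genes followed the same order of lines as in the counts, with Spearman correlations between score and log2 CPM of 0.955 to 0.985.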

How the data were processed

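CUT&Tag for H3K36me3 was run on 93 lymphoblastoid cell lines. The deposited table gives raw read counts for 14000 features, and a further table deposited by the authors gives normal scores. Per the submitters' processing notes, HISAT2 2.2.1, bedtools and the hg38 build were used, in roles not stated. Neither the counted interval nor any read filter was given in the sources used here. The p-values measure the spread between lines, each with 1 library, and counting intervals would cover counting error only.

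Of the 14000 identifiers 0 matched the reference table, so the 10 members took names from the rule that chose them, spans from RefSeq (GRCh38.p14) by symbol, and the fixed pathway and marker lists were not used. The genes named are the members; the rule also allowed their most correlated features, which could not be named for the same reason. Members and lists were chosen with earlier results of these data known. Features had at least 10 counts in at least 47 libraries. Counts were scaled by TMM (factors 0.919 to 1.05), with log2 CPM at a prior count of 2. Variability used edgeR 4.0.16, co-variation and library terms limma 3.58.1, at an adjusted p of 0.05, with DESeq2 1.42.0 as an alternative, in R 4.3.3 and Python 3.11.15. Scripts were tested on simulated data. The row of each library's drop was fitted, 1 per library, without ETS1 and the 10 rows on each side of it. Centring on local rows and leaving out the 10 lines were chosen after seeing the data.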

Additional observations from a re-analysis of the deposited data

How the results depend on the processing

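Depth limits HES4 (median 17 counts), which was not tested with a minimum of 50 counts or in the shallower libraries. Levels per kb moved by less than 1 SD under the other scalings and library subsets. Per feature, not per kb, mean log2 CPM was 9.05 for RUNX3, 8.57 for NOTCH1, 8.05 for RUNX1, 7.95 for SPEN, 7.34 for RBPJ, 7.32 for ETS1, 6.94 for MAML1, 6.62 for NOTCH2 and 5.64 for BATF, by construction larger in long genes. Levels per kb of exon were not run, since no exon lengths were at hand. The count of called pairs, 21, became 34 with library total alone as covariate, 2 and 0 with 5 and 10 principal components (5 and 6 of 45 at an unadjusted p of 0.05, limma), 12 of 36 in the 46 shallower and 4 of 45 in the 47 deeper libraries, which are fewer samples. It was 17 to 29 in the other settings, of which 16 to 21 were the same pairs. The share of all feature tests called with any member, 35.3%, moved with it. That share was 60.1% with library total alone, and 0.566% and 0.147% with 5 and 10 principal components. It was 22.7% in the shallower libraries, 5.07% in the deeper ones and 24.6% to 56.1% in the other settings. Variable features numbered 255 by DESeq2's dispersion outliers, against 2587, and 1936 to 3422 otherwise. Features called with library total numbered 9408, but 4564 among the shallower libraries and 3998 among the deeper ones.

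Signs changed in these cases, and the cause was not tested. With 5 principal components r was 0.23 for NOTCH1 and NOTCH2, 0.0488 for NOTCH2 and HES4, 0.111 for NOTCH2 and SPEN, and 0.0748 for NOTCH2 and RUNX3. With 10 it was 0.186, 0.0458 and 0.236 for the first 3 of these, -0.085 for RBPJ and RUNX1, and -0.0102 for NOTCH2 and MAML1, which was -0.0667 with no covariates. Relative to the trend, BATF was at -0.24 with no covariates, -0.046 with library total alone and -0.20 in the deeper libraries, RUNX3 at -0.19 with no covariates and -0.20 with 10 components, and RUNX1 at -0.10 with 5. Against library total alone the slope was 0.026 for RUNX1 and -0.00025 for ETS1, and that of MAML1 was -0.0024 in the deeper libraries. No paired analysis was possible because the lines form 1 group.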
